A study of Mus musculus with 6 samples.

Results

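The immunity-related GTPases (IRG) and the guanylate-binding proteins (GBP) studied here are 10 interferon-inducible GTPase genes listed by name, *Igtp*, *Iigp1*, *Irgm1*, *Irgm2* and *Ifi47* of the IRG family and *Gbp2*, *Gbp3*, *Gbp5*, *Gbp6* and *Gbp7* of the GBP family. Each gene was represented by its Ensembl transcript with most counts, summed over the 6 libraries. This gave 9 of the 10 genes a value, out of 22086 genes with a counted transcript, and all 9 passed edgeR's filter on low counts. *Gbp6* was not matched by its transcript identifiers and was not analysed here. The members were chosen by family name, with the genotype difference of their counts in these same 6 libraries already known. The genotype differences of its members are therefore given as a description, and their number is not evidence of a direction.

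Polysomal mRNAs of hippocampal astrocytes were recovered by translating ribosome affinity purification (TRAP), in which ribosomes carrying an eGFP-tagged L10a protein are immunoprecipitated. All 6 libraries came from mice aged 6 weeks that carried the Aldh1L1-RPL10aGFP transgene and the Cx43 fl/fl alleles, so that the tag was driven by the promoter of an astrocyte gene. The 3 Cx43FL libraries came from littermates without Cre and the 3 Cx43KO libraries from mice that also carried Gfap Cre, which deletes Cx43, the astroglial connexin encoded by *Gja1*, in cells with a history of *Gfap* promoter activity, neural progenitors included. Whether a library pooled several mice is not given in the sources used here, and the p-values then measure only the spread between these libraries.

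IRG and GBP proteins are large GTPases made by most cells after exposure to interferon gamma, and to a lesser extent type I interferons. They bind membranes around intracellular parasites and bacteria and help to break these compartments open or to clear them with parts of the autophagy machinery. Within the IRG family, the IRGM proteins (*Irgm1*, *Irgm2* and *Igtp*, the last also named *Irgm3*) sit on the membranes of the cell itself and keep the other IRG proteins inactive there. *Iigp1* and *Ifi47* belong to the effector branch that is loaded on the vacuole of the pathogen. GBP proteins assemble on the pathogen or its vacuole, and some of them carry a lipid anchor. Transcription is turned on through 2 DNA elements, the gamma-activated site (GAS) and the interferon-stimulated response element (ISRE), the latter bound by interferon regulatory factors such as IRF1 and IRF9.

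The start windows of these genes were searched for both elements. RefSeq sequence of GRCm38.p6 was matched by symbol, each window running from 250 bases before to 50 bases after an annotated start. It was found for 8 members in 9 windows, *Gbp3* having 2, and not for *Gbp6*. All windows on the chromosome that carries *Iigp1* were left out before this match, so *Iigp1* was not searched. For the ISRE, the letters GAAA, any 2 bases and GAAA were searched on both strands, and for the GAS the letters TTCNNNGAA, whose pattern reads the same on both. An ISRE match was present in 7 of the 8 members, against 3.44% of 32841 mouse start windows, which also leave out that chromosome. A GAS match was present in 4, against 8.30% of these windows, and 4 members held both, against 0.454%. Members were counted as genes, with a match in any window, whereas these percentages count single windows. The members with both were *Igtp*, *Irgm2*, *Gbp5* and *Gbp7*. *Irgm1*, *Gbp2* and *Gbp3* held ISRE matches alone, and *Ifi47* held neither in this window. The start of a window is not always that of the transcript whose counts are used, and for *Ifi47* and *Irgm2* it lies far from it. The *Ifi47* window belongs to the start at 49076587, that of a transcript with the same counts, and the transcript used starts at 49087039. The *Irgm2* window lies next to a transcript starting at 58215028, and the transcript used starts at 58199618. The *Irgm1* window belongs to a transcript starting at 48871420, and the transcript used starts at 48871374. The *Gbp2* transcript used starts at 142620602, upstream of the start of its window. The ISRE match of *Gbp2* therefore lies about at the start of the transcript used and not upstream of it. The *Gbp3* window with ISRE matches lies next to a transcript starting at 142560052. The *Gbp3* transcript used starts at 142560411, and the window nearer to that start held 0 matches. A match gives letters and not binding.

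The windows of *Igtp* and *Irgm2* are printed because both genes lie in 1 locus and have similar start windows, *Irgm1* because it was the most abundant member in Cx43FL, and *Gbp2* as a GBP window with an ISRE match alone. Capitals mark the ISRE and GAS matches, and each sequence is written 5′ to 3′ on the strand of the gene, at chr11:58199306-58199605 (+), chr11:58214727-58215026 (+), chr11:48871371-48871670 (-) and chr3:142620413-142620712 (+) in that order.
Igtp: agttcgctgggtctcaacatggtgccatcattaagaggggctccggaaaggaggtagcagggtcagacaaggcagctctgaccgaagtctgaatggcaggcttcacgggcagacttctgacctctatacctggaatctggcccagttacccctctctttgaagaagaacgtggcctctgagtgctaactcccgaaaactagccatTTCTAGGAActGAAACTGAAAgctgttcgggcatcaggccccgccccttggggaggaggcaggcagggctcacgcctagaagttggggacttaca
Irgm2: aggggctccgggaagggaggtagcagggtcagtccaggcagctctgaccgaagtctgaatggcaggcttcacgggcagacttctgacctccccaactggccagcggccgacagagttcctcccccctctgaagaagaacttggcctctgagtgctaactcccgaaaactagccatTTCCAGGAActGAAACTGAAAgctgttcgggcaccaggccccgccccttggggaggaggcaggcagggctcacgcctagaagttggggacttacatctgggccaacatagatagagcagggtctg
Irgm1: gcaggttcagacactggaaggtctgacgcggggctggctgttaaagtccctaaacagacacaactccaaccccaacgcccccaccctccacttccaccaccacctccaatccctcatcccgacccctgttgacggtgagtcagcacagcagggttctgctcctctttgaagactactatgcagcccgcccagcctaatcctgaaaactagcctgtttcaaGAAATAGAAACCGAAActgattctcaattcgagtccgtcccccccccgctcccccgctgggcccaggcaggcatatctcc
Gbp2: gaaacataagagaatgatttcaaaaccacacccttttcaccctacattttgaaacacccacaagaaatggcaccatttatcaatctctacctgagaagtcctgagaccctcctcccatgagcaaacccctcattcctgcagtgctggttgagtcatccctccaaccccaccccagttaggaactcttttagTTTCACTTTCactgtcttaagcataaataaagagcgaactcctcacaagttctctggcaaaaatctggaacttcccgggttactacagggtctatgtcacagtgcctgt

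Aligned end to end with gaps allowed, the windows of *Igtp* and *Irgm2* had 264 bases paired and 247 of 300 identical (82.3%). The other 35 pairs of windows, aligned in the same way, had between 50.7% and 63.0%. In both, the GAS match stood just upstream of the ISRE match, which read GAAACTGAAA in each. The ISRE match began 34 bases before the start in *Igtp* and 64 bases before it in *Irgm2*. In *Gbp2* it began 59 bases, in the first window of *Gbp3* 45 and 39 bases, and in *Gbp7* 53 bases before the start. The pair of matches in *Irgm1* overlapped and began 30 and 24 bases before the start. *Gbp5* differed from these, its ISRE match lying 165 bases upstream, with a GAS match 52 bases upstream.

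**Figure D1:**
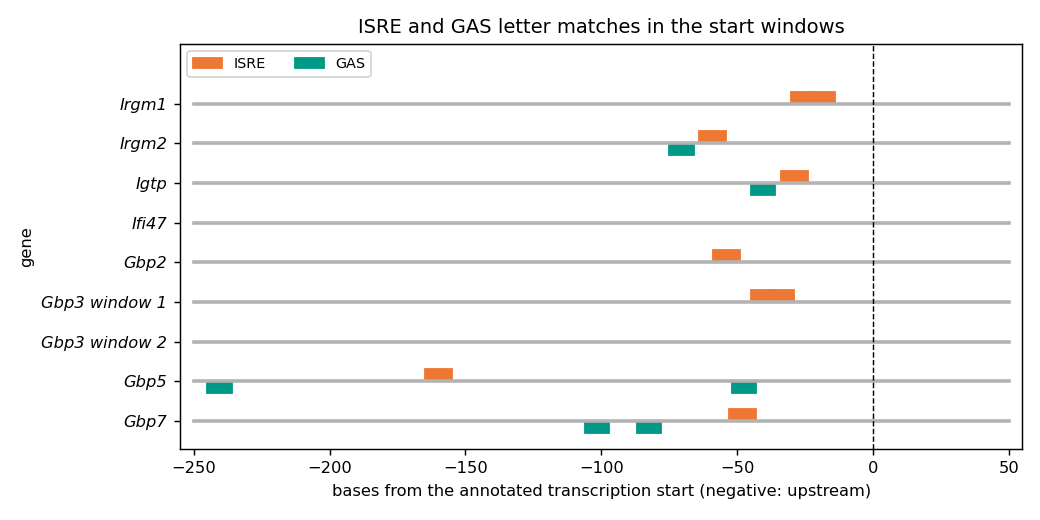
Positions of ISRE and GAS letter matches (boxes) along the start windows of 8 members, in bases from the annotated start, with the second window of *Gbp3* on its own line. The ISRE matches lie within 64 bases upstream of the start except in *Gbp5* (165 bases), and *Ifi47* has no match.

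Total counts on the genes used were 14787303 to 15391214 in Cx43FL, 16056347 in Cx43KO replicate 1, 23965596 in Cx43KO replicate 2 and 34733473 in Cx43KO replicate 3. Values below are counts per M counts of tested genes (CPM) after TMM scaling, and 3 counts, the limit that a count of 0 allows, correspond to 0.0926 to 0.199 CPM. This floor covers the error of counting alone, because reads were amplified and are not separate molecules. The targeted gene *Gja1* stood at 92.0, 91.7 and 82.3 CPM in Cx43FL against 87.2, 98.4 and 95.1 CPM in Cx43KO. It was not lower in any library labelled Cx43KO, and how its reads lie over the deleted part cannot be told from totals per transcript. Cx43FL and Cx43KO in the following therefore stand for the libraries labelled so, and every direction given rests on these labels. In Cx43KO replicate 1, 30.3% of the 13545 tested genes lay above and 29.7% below all other libraries, so results are also given without it. These shares were not computed for the other libraries. Libraries of a genotype were not assigned to lanes in the sources used here, and a lane or library batch cannot be told apart from the genotype.

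All 9 members had a higher mean in the libraries labelled Cx43KO, but in 8 of them this came from replicates 2 and 3, while replicate 1 lay within or below the Cx43FL libraries. *Igtp* alone was higher in all 3 Cx43KO libraries than in any Cx43FL library. Log2 fold changes of Cx43KO over Cx43FL ranged from 1.05 (*Gbp7*) to 4.39 (*Ifi47*), with a median of 2.15 over the 9 members against 0.071 over all 13545 tested genes, of which 54.4% were positive and 45.6% negative. The members' summed level was 73.3, 88.0 and 59.7 CPM in the Cx43FL replicates, in the order 1, 2 and 3, against 62.3, 471 and 373 CPM in Cx43KO. Since each library holds RNA of all tagged cells of the tissue together, more cells that make these mRNAs and more mRNA per cell cannot be told apart.

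A gene was called by edgeR's quasi-likelihood test where its Benjamini-Hochberg adjusted p over all tested genes was below 0.05 and the group with more reads had over 50 normalized counts on average. On this rule 0 of the 9 members were called in either direction. The background was 0.00738% of all genes called higher (1 gene) and 0% called lower. The adjusted p of the members lay between 0.490 and 0.743. At an unadjusted edgeR p below 0.05 there were 4 members higher (*Irgm2*, *Igtp*, *Ifi47* and *Iigp1*), against 5.66% of all genes, and 0 lower, against 2.67%. DESeq2 with its normal prior called 3 members higher (*Irgm2*, *Igtp* and *Iigp1*), against 0.827% of all genes, and 0 lower, against 0.124%. DESeq2 without the prior called *Ifi47* in addition, 4 in all, against 1.03% higher and 0.189% lower in all genes. Without Cx43KO replicate 1, edgeR called 2 members (*Igtp* and *Irgm2*), against 0.0788% of all genes, and 0 lower, against 0%. Since these genes were listed with the same contrast known, nothing is read from these counts.

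**Figure D2:**
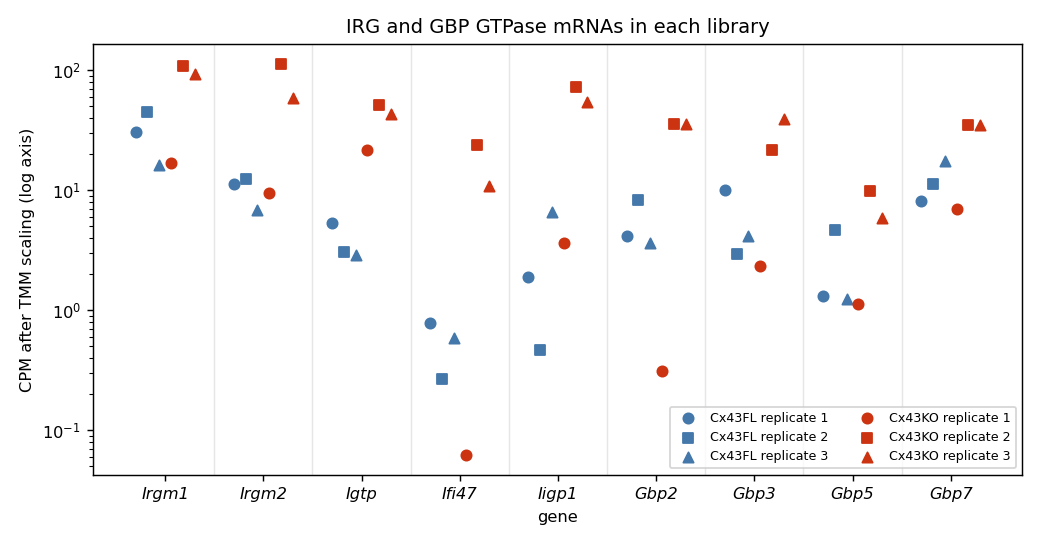
CPM (log axis) of the 9 members in each library, Cx43FL in blue and Cx43KO in red, with symbols for the replicate number. Cx43KO replicates 2 and 3 are above all Cx43FL libraries for all 9 genes, and Cx43KO replicate 1 is above them only for *Igtp*.

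Of the IRGM regulators, *Igtp* (ENSMUSG00000078853, chromosome 11, 58199556 to 58207591, 3 exons) had 5.34, 3.05 and 2.87 CPM in the Cx43FL replicates 1, 2 and 3 against 21.6, 50.9 and 42.9 CPM in the same order in Cx43KO. The lowest Cx43KO library lay above the highest Cx43FL library, and the log2 fold change was 3.36 (standard error 0.57). *Igtp* was the 1 member of 9 whose libraries did not overlap between genotypes, against 8.08% of all tested genes higher and 7.45% lower without overlap. *Irgm2* (ENSMUSG00000069874, chromosome 11, 58199618 to 58222771, 2 exons), which overlaps *Igtp* on the same strand, had 11.2, 12.5 and 6.84 CPM in Cx43FL against 9.50, 113 and 58.1 CPM in Cx43KO. Replicate 1 of Cx43KO lay inside the Cx43FL range, replicates 2 and 3 lay above it, and the log2 fold change came to 2.57 (standard error 0.73). *Irgm1* (ENSMUSG00000046879, chromosome 11, 48865245 to 48871374, 3 exons), the regulator needed for autophagy-linked defence against mycobacteria, had 30.6, 44.6 and 16.1 CPM in Cx43FL against 16.8, 109 and 92.3 CPM in Cx43KO. It had the same order of libraries with a smaller difference, a log2 fold change of 1.26 (standard error 0.62).

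*Igtp* and *Irgm2*, which share a locus, similar start windows and the same pair of elements, were unlike in Cx43KO replicate 1, a difference that was not tested. In Cx43KO replicate 1, *Igtp* was 5.76 times and *Irgm2* 0.934 times its mean CPM in Cx43FL. In Cx43KO replicate 2 the ratios were 13.6 and 11.2, and in replicate 3 they were 11.4 and 5.71. Reads of both genes can be confused in part, since 12.3% of the 50-base words of the *Igtp* transcript also occur in *Irgm2* transcripts, and 8.16% of those of *Irgm2* occur in other genes, mostly *Igtp*. The authors removed reads that map more than once, so such words count less. An *Irgm2* transcript without the first exon that overlaps *Igtp* had 170, 188 and 100 counts in Cx43FL against 153, 2817 and 1849 counts in Cx43KO, close to the 170, 188, 105, 153, 2823 and 1881 counts of the transcript used.

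The effector *Iigp1* (ENSMUSG00000054072, chromosome 18, 60376029 to 60392627, 3 exons), whose product is loaded on parasite vacuoles and is known as Irga6, had 1.91, 0.464 and 6.58 CPM in Cx43FL against 3.66, 72.4 and 53.9 CPM in Cx43KO. Cx43KO replicates 2 and 3 were 24.3 and 18.1 times the Cx43FL mean and replicate 1 was 1.23 times it, and the log2 fold change came to 3.86 (standard error 1.10). *Ifi47* (ENSMUSG00000078920, chromosome 11, 49087039 to 49096972, 2 exons), also named Irgd, had the lowest counts of the IRG members in Cx43FL, with 12, 4 and 9 counts against 1, 597 and 351 counts in Cx43KO. Its 24.0 and 10.8 CPM in Cx43KO replicates 2 and 3 were 43.8 and 19.8 times the Cx43FL mean, and the single count in replicate 1 allows no ratio to be read. The log2 fold change of *Ifi47* was 4.39 (standard error 1.48). *Ifi47* overlaps *Olfr56* on the same strand, which had 0, 0 and 2 counts in Cx43FL against 0, 56 and 40 counts in Cx43KO, and a pseudogene on the other strand. Whether the counting used strand is not given in the sources used here, so reads of these genes cannot be told apart where they overlap.

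The 4 counted GBP genes lie in a cluster on chromosome 3 and had smaller differences than most IRG members, with a median log2 fold change of 1.55 against 3.36 for the 5 IRG members. *Gbp2* (ENSMUSG00000028270, 142620602 to 142638008, 11 exons), a lipid-anchored GBP that coats vacuoles, had 4.15, 8.23 and 3.65 CPM in Cx43FL against 0.310, 35.5 and 35.4 CPM in Cx43KO. Cx43KO replicate 1 was 0.058 times and replicates 2 and 3 were 6.65 and 6.62 times the Cx43FL mean, and the log2 fold change came to 2.15 (standard error 1.12). *Gbp3* (ENSMUSG00000028268, 142560411 to 142573207, 11 exons) had 9.95, 2.92 and 4.17 CPM in Cx43FL against 2.36, 21.4 and 39.1 CPM in Cx43KO (log2 fold change 1.88, standard error 0.90). It and *Gbp7* share 126 words of 50 bases, which is 4.79% and 5.19% of their transcripts.

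*Gbp7* (ENSMUSG00000040253, 142530342 to 142547050, 11 exons), which is linked to autophagy and oxidative defence, was the most abundant GBP in Cx43FL with 8.10, 11.3 and 17.7 CPM. It had 6.95, 34.6 and 35.2 CPM in Cx43KO, and its log2 fold change of 1.05 (standard error 0.65) was the smallest of the 9. *Gbp5* (ENSMUSG00000105504, 142496900 to 142522344, 11 exons), a GBP known for promoting inflammasome assembly, had 1.32, 4.64 and 1.24 CPM in Cx43FL against 1.12, 9.85 and 5.84 CPM in Cx43KO. Cx43KO replicate 3 lay not far above the highest Cx43FL library, and the log2 fold change of 1.22 was near its standard error of 1.08. In all 4 GBP genes Cx43KO replicate 1 was the lowest of the 6 libraries. With *Ifi47* this made 5 of the 9 members, against 29.7% of all tested genes.

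Without Cx43KO replicate 1, all 9 members lay above every Cx43FL library, against 13.9% of all tested genes higher and 12.3% lower in the same comparison of 2 with 3 libraries. Without Cx43KO replicate 2 only *Igtp* did so (background 14.2% higher and 13.1% lower), and without Cx43KO replicate 3 again only *Igtp* (background 16.1% higher and 16.0% lower). Cx43KO replicate 1 was the lowest of the Cx43KO libraries for all 9 members, which was the case for 40.6% of all tested genes. Without it *Igtp* had a log2 fold change of 3.64 ± 0.49 (SE) and edgeR gave an adjusted p of 0.0190. *Irgm2* had 3.07 ± 0.43 (SE), with an adjusted p of 0.0214 by edgeR. The other 7 members then had log2 fold changes from 1.49 (*Gbp7*) to 4.98 (*Ifi47*), with edgeR's adjusted p from 0.0826 (*Ifi47*) to 0.664 (*Gbp5*). These p-values depend on removing the Cx43KO library that was lowest for all 9 members. With any other single library left out instead, edgeR's adjusted p of *Igtp* and *Irgm2* lay between 0.214 and 0.934. The libraries of high member level were also the deepest, and the part of depth in these values was not tested.

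**Figure D3:**
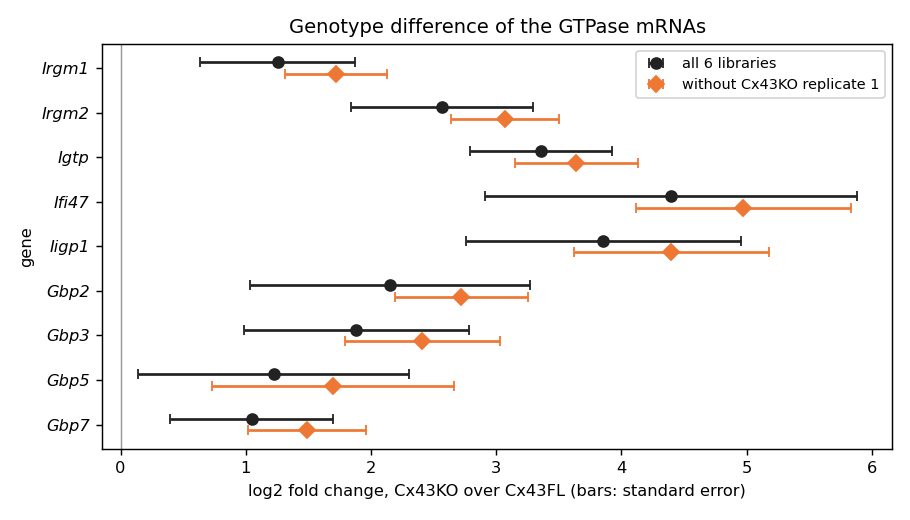
Log2 fold change of Cx43KO over Cx43FL for the 9 members with its standard error, from edgeR, with all 6 libraries (circles) and without Cx43KO replicate 1 (diamonds). All values are above 0, and *Igtp* moves least among the IRG members, from 3.36 to 3.64.

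Levels of different genes were compared as CPM per kilobase of the transcript used. In Cx43FL, *Irgm1* had the highest level in all 3 libraries (7.12 to 19.7 CPM per kilobase) and lay above *Gbp7* (3.24 to 7.07) without overlap. In descending order of the median followed *Irgm2*, *Gbp2*, *Gbp3*, *Igtp*, *Iigp1*, *Gbp5* and *Ifi47*, the last at 0.157 to 0.468 CPM per kilobase. Each of these neighbours overlapped the next in range, so their order is not fixed by these libraries. *Igtp* ranked 5, 6 and 7 of 9 in the Cx43FL libraries and 1, 3 and 2 in the Cx43KO libraries, in the order of their replicate numbers. In Cx43KO replicate 1 its 10.7 CPM per kilobase was above the 7.42 of *Irgm1*. A second *Gbp7* transcript of 5614 bases had 2676 counts in all against 2677 for the 2497 bases of the one used, so the place of *Gbp7* depends on the transcript taken for its length.

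The files count 24 transcripts of the members. In a fit of all 49127 tested transcripts, the 19 that passed the filter all had positive log2 fold changes, between 1.06 and 4.38. By edgeR 0 of them were called, against 1 higher and 0 lower among all tested transcripts. Transcripts of a gene share exons and reads, some having the same counts, and are not independent of each other. The number of positive values is therefore not evidence of a direction.

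Over the 6 libraries, Pearson's r between the log2 CPM of 2 members ranged from 0.43 to 0.96 over the 36 pairs, with a median of 0.82. The 8 pairs with *Igtp* had r from 0.43 to 0.83, and the 28 pairs without it had a median of 0.84. These values describe 6 libraries that share their depth and genotype contrast. Of 13536 other tested genes, 29 (0.214%) had an r above 0.95 with the mean profile of the 9 members. The 8 highest were *Lrrc46* (0.992), *Cluh* (0.987), *Ifih1* (0.985), *Optn* (0.983), *Hdgfl2* (0.979), *Ube2d1* (0.978), *H2-D1* (0.977) and *Spef2* (0.970). *Lrrc46* had 0.725, 0.332 and 0.456 CPM in Cx43FL against 0.186, 5.55 and 5.25 CPM in Cx43KO. *Cluh* had 67.6, 66.2 and 71.1 CPM in Cx43FL against 65.8, 96.1 and 95.7 CPM in Cx43KO, a log2 fold change of only 0.33. *Ifih1*, a cytosolic sensor of viral RNA, had 7.64, 8.82 and 7.75 CPM in Cx43FL against 7.95, 27.2 and 20.2 CPM in Cx43KO. *H2-D1*, a class I antigen-presenting molecule, had 6.45, 9.29 and 7.36 CPM in Cx43FL against 6.64, 95.7 and 162 CPM in Cx43KO. In all 8 of these genes, as in 8 members, Cx43KO replicate 1 did not stand above the Cx43FL libraries. The genes were chosen for following the members' profile, so this order of libraries is not a separate result.

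The list of other IRG and GBP family genes held 18 names, of which 16 were counted and 6 tested, with a median log2 fold change of 2.84. By edgeR 0 were called, and DESeq2 with its prior called 1, *Gbp4*. DESeq2 without the prior called 2, *Gbp4* and *Gbp8*. *Gbp4* had 1, 6 and 2 counts in Cx43FL against 39, 135 and 180 counts in Cx43KO (log2 fold change 4.46, standard error 1.28, adjusted p = 0.490 by edgeR and 0.0310 by DESeq2 with its prior). Like *Igtp*, it was higher in Cx43KO replicate 1 than in every Cx43FL library. *Gm4951*, an IRG gene that shares 50-base words with *Iigp1*, was the other gene without overlap, with 19, 0 and 0 counts in Cx43FL against 110, 334 and 67 counts in Cx43KO. *Gbp10* had 6, 19 and 0 counts in Cx43FL against 5, 277 and 192 counts in Cx43KO, the order of libraries of most members. Below the filter, *Gbp8* had 0, 0 and 1 counts against 0, 185 and 198, *Gbp9* 1, 5 and 0 against 1, 460 and 25, and *Tgtp2* 0 in all Cx43FL libraries against 0, 66 and 92. *Irgq*, a distant relative whose expression does not depend on interferon, had 58.3, 56.1 and 71.3 CPM in Cx43FL against 84.7, 33.8 and 55.9 CPM in Cx43KO (log2 fold change -0.09, standard error 0.38). Its libraries overlapped and did not follow the order seen in the members.

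Upstream of the members, mRNA of the 3 ligands looked at was below the floor of 3 counts. *Ifng* had 2 counts in Cx43FL replicate 3 and 0 in the other libraries, and *Ifnb1* and *Ifna4* had 0 in all 6. The libraries were purified for RNA of tagged cells, so whether other cells made these ligands cannot be told from them. The 4 receptor genes were all tested, with log2 fold changes from -0.52 to 0.36 and 0 called by edgeR. Of the receptor kinases, *Jak1* (0.22), *Jak2* (-0.52) and *Tyk2* (1.02), 0 were called. *Jak1* and *Jak2* are the kinases of the interferon gamma receptor. *Jak1* had 142, 155 and 168 CPM in Cx43FL against 171, 170.1 and 199 CPM in Cx43KO, higher without overlap (adjusted p = 0.815 by edgeR). *Jak2* had 92.2, 103 and 108 CPM in Cx43FL against 70.6, 63.6 and 77.5 CPM in Cx43KO, lower without overlap (adjusted p = 0.621 by edgeR).

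The 6 transcription factor genes of the pathway that are described here were all tested, 5 with positive log2 fold changes, a median of 0.85 and a range from -0.35 to 1.60, and 0 were called by edgeR or DESeq2 with its prior. *Irf1*, itself induced by interferon gamma, had 3.62, 1.86 and 10.4 CPM in Cx43FL against 0.435, 21.7 and 26.1 CPM in Cx43KO. *Stat2* and *Irf9*, whose products act together at the ISRE, had log2 fold changes of 1.29 and 1.11. For *Stat2*, *Irf1* and *Irf9*, Cx43KO replicates 2 and 3 lay above all Cx43FL libraries and replicate 1 did not, as for 8 of the 9 members. For *Irf2*, *Irf7* and *Irf8*, replicates 2 and 3 did not both lie above Cx43FL. Without replicate 1, 3 of the 6 factors were thus higher without overlap, against 13.9% of all tested genes. In the same comparison 0 were lower, against 12.3%. Among the 5 inhibitor genes, *Usp18*, an interferon-induced brake on the type I receptor, had 15, 6 and 0 counts in Cx43FL against 0, 299 and 195 counts in Cx43KO. *Socs3* had 37, 12 and 41 counts against 2, 19 and 33 counts, and 0 of the 4 tested inhibitors were called by edgeR.

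Of 14 other interferon gamma targets, 13 were counted and 9 tested, with a median log2 fold change of 1.86. By edgeR 0 were called, and DESeq2 with its prior called 3 higher (*Psmb9*, *Cd274* and *Cxcl10*) and 0 lower. DESeq2 without the prior called 5 higher, *Nlrc5* and *Cxcl9* in addition. *Psmb9*, an immunoproteasome subunit, had 7.64, 1.33 and 4.30 CPM in Cx43FL against 9.19, 119 and 19.1 CPM in Cx43KO. *Cd274*, the checkpoint ligand PD-L1, had 4.81, 0.730 and 1.63 CPM in Cx43FL against 58.9, 31.6 and 15.1 CPM in Cx43KO, highest in the replicate 1 in which most GTPase genes were low. *Cxcl10*, a chemokine for T cells, had 6.52, 9.95 and 1.89 CPM in Cx43FL against 7.82, 56.9 and 52.1 CPM in Cx43KO. The 12 type I interferon targets, 9 of them tested, had a median log2 fold change of 1.60. By edgeR and by DESeq2 with its prior 0 were called, and DESeq2 without the prior called 1, *Ifit1* (adjusted p = 0.0476). Among them *Ifit1* had 0.461, 2.19 and 2.67 CPM in Cx43FL against 0.248, 27.9 and 46.7 CPM in Cx43KO, and *Oasl2* had 10.4, 11.9 and 6.12 CPM against 2.61, 60.2 and 96.3 CPM.

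Genes for the proteins with which IRG and GBP GTPases work were described in the same way. The 10 genes of the ATG8 conjugation machinery, on which loading of these GTPases on vacuoles depends, were all tested, 1 with a positive log2 fold change, a median of -0.28 and 0 called by edgeR or DESeq2 with its prior. Without overlap of libraries, 3 of the 10 were lower in Cx43KO, *Gabarapl2* among them, against 7.45% of all tested genes. In the same comparison 0 were higher, against 8.08%. *Gabarapl2*, an ATG8 protein linked to GBP and IRG targeting, had 151, 200 and 91.8 CPM in Cx43FL against 29.3, 49.8 and 77.3 CPM in Cx43KO. Its libraries did not overlap, and the log2 fold change came to -1.50 (standard error 0.42, adjusted p = 0.490 by edgeR and 0.0787 by DESeq2 with its prior). Next in size was *Atg7* (log2 fold change 0.64, standard error 0.34). The 5 prenylation enzymes, which attach lipid anchors, had a median of -0.25 and 0 calls by edgeR or either DESeq2 fit, the largest differences being those of *Pggt1b* (-0.80) and *Icmt* (0.70). Of 7 inflammasome genes, 4 were tested, with a median of -0.20 and 0 calls by edgeR, the largest differences being those of *Gsdmd* (1.46) and *Pycard* (-0.60). *Casp4*, the caspase that senses lipopolysaccharide set free with the help of GBP proteins, was below the filter with 0 counts in all Cx43FL libraries and 0, 26 and 374 counts in Cx43KO. DESeq2 with its prior gave it an adjusted p of 0.430 and DESeq2 without the prior called it (adjusted p = 0.0245).

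Markers of other cells were set beside the members. The 8 astrocyte markers summed to 18157 to 21132 CPM in Cx43FL and to 10391, 19703 and 29679 CPM in Cx43KO replicates 1 to 3, so astrocyte mRNA was abundant in every library. The 9 microglia markers used summed to 18.4 to 32.4 CPM in Cx43FL and to 60.7, 56.6 and 76.2 CPM in Cx43KO, with 7 tested and 1 called by DESeq2 with its prior. Their sum was above Cx43FL in all 3 Cx43KO libraries, replicate 1 included, where 8 members were not above Cx43FL. In Cx43KO replicate 1, however, *Itgam* alone made up 37.9 of the 60.7 CPM, against 8.40 and 4.17 CPM in replicates 2 and 3. The place of the sum in replicate 1 thus rested on that gene. Single microglia genes differed in their order of libraries. *Itgam* had 9, 0 and 3 counts in Cx43FL against 610, 209 and 135 counts in Cx43KO, while *Trem2* had 1, 0 and 3 against 0, 76 and 81 counts and *C1qa* 0, 0 and 4 against 1, 88 and 83 counts, both in the order of the GTPase genes. *Csf1r* was, like *Itgam*, higher in Cx43KO without overlap (log2 fold change 1.96). The microglial identity genes *Cx3cr1*, *P2ry12* and *Tmem119* overlapped between genotypes, with log2 fold changes of 0.13, -0.20 and -0.23. The part of microglial RNA in the members' values was not tested.

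The 7 endothelial markers summed to 5.60 to 11.2 CPM in Cx43FL and to 22.7, 5.06 and 11.1 CPM in Cx43KO, and were thus not high in Cx43KO replicates 2 and 3. Neuron markers summed to 1432 to 1977 CPM in Cx43FL and to 3901, 1671 and 3119 CPM in Cx43KO, and oligodendrocyte markers to 507 to 823 CPM and to 2127, 807 and 560 CPM. The 5 choroid plexus markers were higher in all Cx43KO libraries (32745, 26151 and 21968 CPM) than in Cx43FL (9854, 456 and 15246 CPM), and their part in the result was not tested. Of 12 T and NK cell markers, *Cd3e*, *Cd3d*, *Cd3g*, *Cd8a*, *Cd8b1*, *Nkg7*, *Gzma*, *Gzmb* and *Klrb1c* had 0 counts in all 6 libraries. *Cd4*, which microglia and macrophages can also express, had 3, 1 and 16 counts in Cx43FL against 1, 66 and 34 counts in Cx43KO, *Cd2* had 6, 0 and 0 against 0, 44 and 1, and *Lck* had 6, 7 and 16 against 2, 8 and 0. The part of T or NK cell RNA in the members' values was not tested. The 4 B cell markers summed to 0.263 to 1.50 CPM in Cx43FL and to 0.745, 0.0402 and 0.185 CPM in Cx43KO.

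The largest log2 fold changes in the other marker lists were those of *Gjb6* (-0.83) and *S100b* (-0.69) for astrocytes, *Slco1a4* (1.54) and *Cldn5* (1.26) for endothelium, and *Slc17a7* (1.51) and *Rbfox3* (1.30) for neurons. For oligodendrocytes they were *Mbp* (2.4) and *Mag* (1.39), and for choroid plexus *Aqp1* (1.96) and *Folr1* (1.81). Of these only *Mbp* had an adjusted p below 0.05, by DESeq2 without its prior (0.0476).

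**Figure D4:**
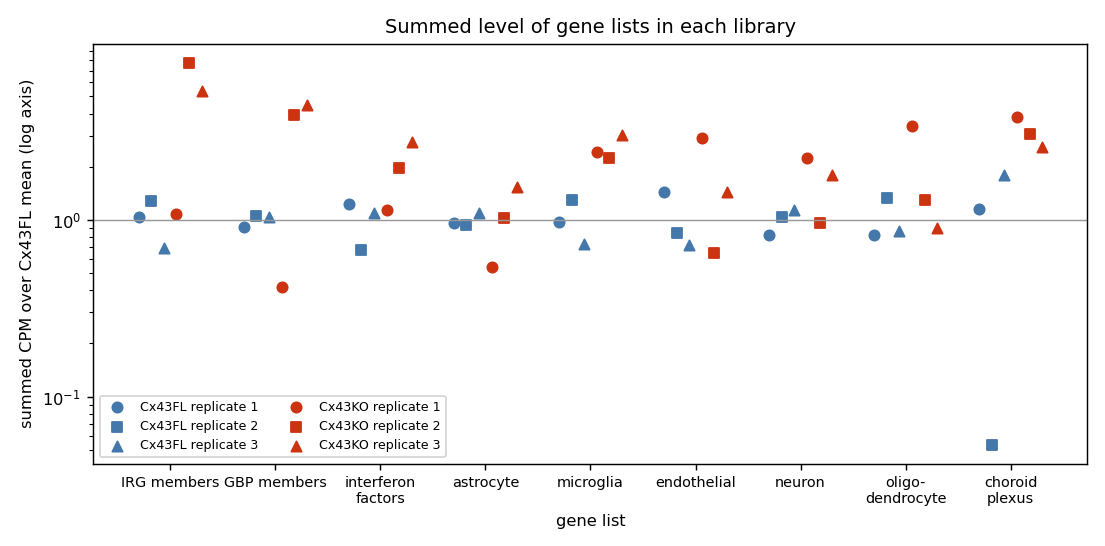
Summed CPM of gene lists in each library, divided by the mean of the 3 Cx43FL libraries (log axis), Cx43FL in blue and Cx43KO in red. IRG members (51.6, 369.5 and 258 CPM in Cx43KO replicates 1 to 3) and GBP members (10.7, 101 and 115 CPM) are high in replicates 2 and 3, whereas neuron and oligodendrocyte lists are highest in replicate 1.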

How the data were processed

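Polysomal mRNAs were measured in 3 Cx43FL and 3 Cx43KO libraries, grouped by the sample labels. The authors aligned reads to mm10 by STAR, discarded those with several alignments, used HTSeq 0.5.3 for counting (version from the submitters' processing notes) and deposited raw counts per Ensembl transcript, not normalized. Of 75466 transcripts, 73157 were matched to the GRCm38 annotation, and the other 2309 (1.60% to 1.78% of the counts) were left out. Genotypes were compared in all 13545 genes that passed filterByExpr with edgeR 4.0.16 (R 4.3.3, TMM, quasi-likelihood test). A call required a Benjamini-Hochberg adjusted p below 0.05 and over 50 normalized counts on average in the higher group. Standard errors are log2 fold changes over the root of F. DESeq2 1.42.0 (normal prior or none), other scalings, filters, a replicate block, summed transcripts and each library left out were alternatives. Sums, correlations and windows were computed in Python 3.11.15 with pandas 2.3.3, scipy 1.17.1 and Biopython 1.88. The members and lists were chosen with earlier results of these data known. Genes named are the members, the pathway and family lists, the called and 2 largest changes of the other lists, and the 8 genes most like the members' mean profile. Results for 1 gene of the pathway lists and 1 of the marker lists are not reported here, and sums leave them out. Other single marker genes and *Casp4* were named after their values were seen.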

Additional observations from a re-analysis of the deposited data

How the results depend on the processing

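All 9 members kept a positive log2 fold change under every alternative run, 123 values between 0.54 and 5.18, of which 114 kept their side of the threshold, 9 passed it and 0 changed sign. *Ifi47*, *Iigp1* and *Gbp2* have no value under the filter of 10 counts in every library. The 9 came from DESeq2 with its prior (3 members called higher), DESeq2 without it (4 members) and the fit without Cx43KO replicate 1 (2 members). With each library left out in turn, edgeR called 0 to 2 members, against 0 with all libraries. Over all genes, edgeR called 1 higher and 0 lower. The number higher was 113 with DESeq2 and its prior, 147 without the prior, 2 with the replicate number as a block, 0 with at least 10 counts in every library, 0 with transcripts summed per gene, and 0 to 11 with a library left out (11 without Cx43KO replicate 1). The number lower was 17 with DESeq2 and its prior and 27 without it. The cause was not tested. Libraries with the same replicate number did not deviate together over all tested genes (r from -0.039 to -0.0071). These r come from 3 libraries per genotype and cannot exclude that the numbers pair them. With the block 0 members were called. Scaling by DESeq2 size factors or upper quartiles shifted the median of all genes by -0.0044 and -0.059 on the log2 scale. A biological coefficient of variation of 0.60 and few counts of *Ifi47*, *Iigp1* and *Gbp5* in Cx43FL limit the precision.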
